A study of Oryctolagus cuniculus with 54 samples.

Results

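The genes described here are 100 genes of the rabbit lung transcriptome whose level, in the first of 3 sequencing runs, was lower on the day of term birth (T31) than at 28 and 29 days of gestation and 4 days after term birth. They were taken from a table of 29587 Ensembl gene identifiers, of which 8730 passed an expression floor of 2.6 on the log2(CPM + 1) scale at both F29 and T35, where CPM is the count per 1000000 counts of the library and group values are means over animals. These 8730 genes were ranked by the lowest of their F28, F29 and T35 group values minus their T31 value, and the first 100 were kept. The lung RNA came from New Zealand White rabbits, 45 animals in 54 libraries of 3′ end sequencing (QuantSeq, which reads 1 site near the end of each transcript). Fetuses taken by C-section were sampled at F20 and F23 (4 animals each) and at F25, F27, F28 and F29 (3 animals each), the number being the day of gestation. Term pups were born naturally on day 31 and stayed with their mothers in room air, and were collected on the day of birth (T31, 6 animals) or 4, 6 and 11 days later (T35, T37 and T42, with 3, 4 and 3 animals). Preterm pups were delivered by C-section on day 28 and kept in incubators at 21% oxygen on a milk replacer, and were collected 1 hour after delivery (P0) or on day 3 (P3) or day 7 (P7), 3 animals each. Before the C-sections the dams of the fetuses were sedated with medetomidine, given ketamine and xylazine and killed with pentothal sodium, so that the fetuses differed from the naturally born pups in this exposure as well as in age, and pups were killed with the same agent before the lungs were taken. The part of these agents in the results was not tested. Pups of a time point came from different dams, and the tissue was a homogenate of the right lung, or of whole lungs at the 2 earliest fetal ages.

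Around birth the lung changes from a fluid-filled organ to one that exchanges gas: fluid secretion gives way to absorption, surfactant is released, blood flow through the lung rises, and labour brings a surge of glucocorticoids and catecholamines. In the weeks before, the mesenchyme between the future air spaces thins and cell division slows. After birth the air spaces are subdivided by new septa, a process in which cells divide again and elastic fibres are laid down. A level read in a homogenate sums over all these cells, so that fewer cells of a type and less RNA per cell cannot be told apart. The table pairs no identifier with a gene name (0 of 29587 identifiers could be matched), so neither the functions of the 100 genes nor lists of pathway or cell type marker genes were examined, and the tissue was not checked against its markers.

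Each library held between 5771693 and 8073755 counts (median 7090332), and no library was identical to another. Run 1 held 18 libraries, run 2 held 12 and run 3 held 24, and 6 animals were sequenced in more than 1 run, giving 15 libraries. The 3 T31 animals of run 1 chose the genes, while the 3 T31 animals of run 3 (numbers 4, 11 and 18) and the animals of F20, F23, T37, T42, P0, P3 and P7 took no part in the choice. The F28 and T35 animals of runs 2 and 3 were again animals of run 1, so that in comparisons with them only the other side was new.

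In the values that chose them, the 100 genes were lower at T31 than in the nearest of the 3 other time points by a median of 1.01 on the log2 scale, against a median of -0.19 over all 8730 genes. The 5 genes at the top of the ranking stood between 2.12 and 2.48, the last 5 members between 0.72 and 0.75, and the 5 genes just outside between 0.70 and 0.72, so that no step separated members from the genes below them. In all, 1872 of the 8730 genes had a T31 value below the other 3.

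The name of a dip on the day of birth covered 3 unlike patterns. When the 100 genes were grouped by how they varied together over the 54 libraries (average linkage on the correlation of log2(CPM + 1) values centred within each run), 78 were for the most part lower at each later fetal age down to T31 and higher again after it, and are called gradual below. A further 12 moved together between a low and a high level that did not follow age, and are called bimodal. The distance between the levels was wide in 7 of the 12 and narrower in the rest, with an overlap in a single gene. The other 10 moved with neither set, with a median correlation among themselves of 0.24. These sets were made from the values they describe, those of T37, T42 and the preterm pups included. Levels of a set and counts within it are therefore a description.

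The gradual genes were not at a plateau before birth. The median level of the 78 genes lay between 6.32 and 6.45 in the 4 animals of F20, between 5.91 and 6.14 at F23, and at 5.69 in the single F25 library of run 3. In run 1 it lay between 5.98 and 6.14 at F25, between 5.0 and 5.48 at F27, between 4.40 and 4.77 at F28, and between 3.82 and 4.21 at F29. The 4 fetal groups of run 1 did not overlap, each being lower than the one before. At T31 the median lay between 2.62 and 3.24 in the 3 animals of run 1 and between 2.81 and 3.08 in the 3 animals of run 3. Every T31 animal was thus below every fetal animal of any run. The standard deviation of the 3 T31 animals of run 1 was 0.33, against 0.09 to 0.27 in the fetal groups of that run.

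After term birth the animals of T35 and T37 lay further apart than those of T31. At T37 the 4 animals had medians between 3.58 and 5.24, and at T42 the 3 animals lay between 3.48 and 4.26, all above the T31 animals of the same run. At T35 the 3 animals of run 1 were at 3.30, 4.97 and 5.49. The lowest, T35 number 11, was also the lower of 2 T35 animals in run 2 (3.22 against 4.53) and in run 3 (3.01 against 4.71). Its level was within or below the range of the T31 animals of the run for 49 of the 78 genes in run 1 and again for 49 in run 3, whereas T35 number 6 was so for 3 genes in run 1 and 10 in run 3, and T35 number 1 for 4 genes. Libraries made from 1 animal in different runs differed by 0.20 to 0.44 in this median, which is less than the distance between the 2 repeated T35 animals in any run.

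**Figure D1:**
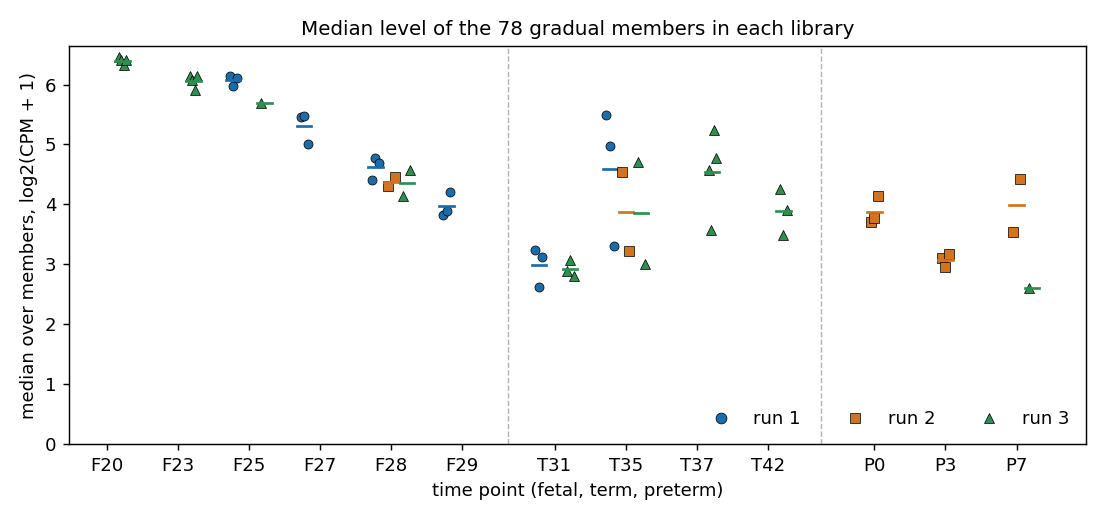
Median level of the 78 gradual genes (vertical axis, log2(CPM + 1)) in each of the 54 libraries, by time point (horizontal axis), with circles for run 1, squares for run 2, triangles for run 3 and short bars for group means. Levels run down from F20 (6.32 to 6.45) to T31 (2.62 to 3.24), are higher in most animals of T35 to T42, and are low again at P3 (2.95 to 3.17).

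Counted gene by gene, the lower level at each later fetal age was shared by nearly all of the set. The group value was lower at F27 than at F25 in 75 of 78 genes, lower at F28 than at F27 in 75 and lower at F29 than at F28 in 77, while over the 8730 genes these shares were 58.9%, 50.8% and 60.9%. Values at F28 and F29 were used in the choice, those at F25 and F27 were not. All of them were used to form the set, so its excess over the 8730 was partly built in. Over all 100 genes the counts were 79, 90 and 82. In run 3, F20 was the highest time point for 61 of 78 genes (28.9% of the 8730), and T31 was the lowest of the 8 fetal and term time points for 70 (22.2% of the 8730). Over all 100 genes these counts were 62 and 76. Over the 78 genes, the median difference from T31 in the same run was 3.61 at F20, 3.31 at F23, 1.41 at F28, 1.70 at T37 and 1.06 at T42 on the log2 scale. In run 1, 2 of 78 genes were higher at T35 than at F25, and 21 of all 100 genes, against 36.1% of the 8730.

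The gradual genes had a median pairwise correlation of 0.93 over the 54 libraries, which share their animals' ages and, in 15 cases, the animals themselves. The set was grouped on this same correlation, so that a high value within it was built in. The lowest pairwise value was -0.03, so the set held some loosely joined genes. Of the 78, 63 correlated at 0.9 or more with the mean of the set, which includes each of them. Outside the 100 genes, 66 of 8630 genes reached the same correlation.

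In animals that played no part in the choice, T31 was compared with T37 and T42 in run 3, with edgeR's quasi-likelihood test fitted to all 24 libraries of the run. The p-values of the 14817 tested genes were adjusted by Benjamini-Hochberg, and a call needed more than a 2-fold difference with an adjusted p no higher than 0.05. Of the 100 genes, all tested, 67 were lower at T31 than at T37 and 0 were higher, and all 67 were gradual genes. Over all genes tested, 3.85% were called lower and 1.8% higher. The median fitted log2 difference was -1.84 over the 100 genes and -0.01 over all genes. It was below 0 for 92 of the 100 genes, 77 of them gradual, and the gradual genes reached -3.53. Every T31 animal was below every T37 animal for 67 of the 100 genes (64 gradual, 2 bimodal and 1 other), against 16.9% of the 8730. Leaving out any 1 of the 7 animals gave between 58 and 68 genes. With only the T31 and T37 libraries in the fit, 41 genes were called.

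Against T42, 11 days after birth, 37 of the 100 genes were lower at T31 and 0 higher, where 3.82% and 1.48% of all genes tested were called. The median difference was -1.15 over the 100 genes and over the gradual genes, and 93 of the 100 were below 0, 76 of them gradual. The groups did not overlap for 65 of the 100 genes, against 20.4% of the 8730. This count was less steady than that for T37: it was 12 without T42 number 14, 18 without T42 number 50, 17, 20 or 21 without each T31 animal in turn, and 44 without T42 number 33.

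For F28 and T35 the comparison repeated part of the choice, since those animals were in run 1 too. At T31 43 of the 100 genes were lower than at F28 and 0 were higher (3.12% and 1.78% of all genes), and 39 were lower than at T35 and 0 higher (3.51% and 1.94%). The 39 were made up of 34 gradual, 3 bimodal and 2 other genes. Each group held 2 animals, and the counts rested on single animals: without F28 number 7 the first was 9, without F28 number 2 it was 26 and without T31 number 4 it was 28, while without T35 number 6 the second was 4 and without T31 number 4 it was 18. Groups did not overlap for 70 genes against F28 and for 42 against T35, where 27.5% and 20.8% of the 8730 genes did not. The quantity used for the ranking, without F29, was computed again from run 3. It was above 0 for 86 of the 100 genes (73 of 78 gradual, 6 of 12 bimodal and 7 of 10 other), against 40.2% of the 8730, and had a median of 0.74 against -0.11. Only 19 of the 100 genes were among the first 100 of run 3 when ranked in this way.

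**Figure D2:**
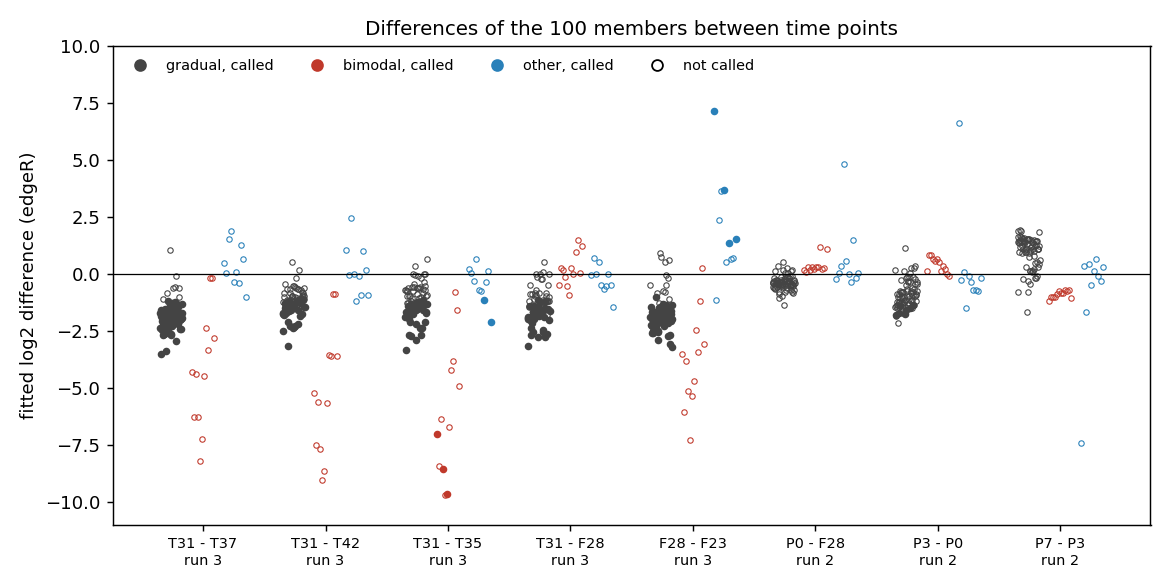
Fitted log2 difference between time points (vertical axis, edgeR) for each of the 100 genes, in 8 comparisons (horizontal axis) and split into gradual, bimodal and other genes from left to right. Filled points passed the call. The gradual genes lie mostly below 0 at T31 against T37 (median -1.85), the bimodal genes reach -9.70 at T31 against T35 with few calls, and the gradual genes lie mostly above 0 at P7 against P3 (median 1.15) with no call.

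The difference before birth was tested in the same fit of run 3, in a comparison added after the levels had been seen. Between F23 and F28, 64 of the 100 genes fell and 4 rose, against 7.03% and 9.09% of all genes tested, and the median difference over the gradual genes was -1.81. All 4 that rose were among the 10 other genes. Without F28 number 2 the count of genes that fell was 29, and without any other animal of the comparison it was between 54 and 64. Between F25 and F27 in run 1, also added, 0 of the 100 genes were called in either direction by edgeR, by DESeq2 or by limma-voom, where 0.0% of all genes were called lower and 0.0274% higher. There 12 genes were lower and 1 was higher at an unadjusted p under 0.05 in edgeR, and the gradual genes had a median difference of -0.68. These counts rested on single animals: they were 1 and 1 without F27 number 11, 4 and 1 without F25 number 18, 7 and 3 without F25 number 3, and 7 and 11 without F25 number 13.

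The preterm pups, delivered at the age of the F28 fetuses, were examined in run 2. One hour after delivery the median level of the gradual genes was 3.71, 3.77 and 4.14 in the 3 P0 animals, below the 4.30 and 4.46 of the 2 F28 animals of the run. By P3, an age equal to that of T31 counted from conception, it had reached 2.95, 3.10 and 3.17, close together and below every P0 animal. At P7 the 2 animals of run 2 were at 3.55 and 4.42, and the third, sequenced in run 3, was at 2.6, below all 3 T31 animals of that run. Across these runs the P7 animals lay on both sides of the P3 values.

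Of the 100 genes, 7 fell between P0 and P3 and 0 rose, all in edgeR's quasi-likelihood test of the 12 libraries of run 2, where 0.689% of the 13791 genes tested were called lower and 1.83% higher. The median fitted difference was -0.80 over the 100 genes and -0.96 over the gradual genes, and 80 of the 100 were below 0, 71 of them gradual. Every P3 animal was below every P0 animal for 57 of the 100 genes (55 of them gradual), against 12.1% of the 8730. The calls were few and depended on each animal: 0 remained without P0 number 3, P3 number 1 or P3 number 2, and 2 without P0 number 1, P0 number 4 or P3 number 3. DESeq2 called 17 and limma-voom 1. At an unadjusted p under 0.05, 48 of the 100 genes were lower at P3 and 1 was higher.

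The neighbouring steps gave few or no calls. Between F28 and P0, 0 of the 100 genes were called in either direction by edgeR, DESeq2 or limma-voom, with 0.0363% of all genes called lower and 0.181% higher. At an unadjusted p under 0.05, 3 were lower and 2 higher in edgeR. The gradual genes had a median difference of -0.40, and the groups did not overlap, with P0 below, for 42 of the 100 genes against 20.9% of the 8730. Between P3 and P7 edgeR called 0 of the 100 genes in either direction, where 0.00725% of all genes were called lower and 0.0363% higher. At an unadjusted p under 0.05, 50 were higher and 2 lower at P7, but without P7 number 4 these counts were 14 and 14. DESeq2 called 7 higher, limma-voom 0. Every P3 animal was below both P7 animals for 55 genes, all gradual, against 16.6% of the 8730. P3 had the lowest mean of P0, P3 and P7 in 70 of the 100 genes (29.7% of the 8730), 66 of them gradual, with the P7 mean taken from 2 animals.

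A pair of gradual genes serve to show the values behind these counts. They were picked after the values were seen, as having the largest differences between T31 and T37, and their names are not known here. ENSOCUG00000002818, at rank 11, had log2(CPM + 1) levels of 1.60, 1.70 and 1.08 in the T31 animals of run 3, which were 15, 16 and 9 counts. The T37 animals stood at 4.86, 3.13, 5.10 and 4.60, all above the T31 animals, with number 27 the lowest. The 4 F20 animals had been between 6.51 and 6.80. Its fitted log2 difference between T31 and T37 was -3.53 (SE 0.559, adjusted p 0.000367, edgeR's quasi-likelihood test). In the preterm pups it was at 3.73, 3.69 and 3.89 at P0 and at 2.34, 1.59 and 2.47 at P3, where the groups did not overlap. The difference of -1.86 (SE 0.529) missed the call, with an edgeR adjusted p of 0.0632.

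ENSOCUG00000003917, at rank 29, had levels of 1.24, 0.99 and 0.58 in the T31 animals of run 3, or 10, 7 and 4 counts, against 3.95, 2.50, 3.96 and 3.46 at T37. The groups did not overlap, and the difference was -3.37 (SE 0.385, edgeR adjusted p 2.3e-05). This gene was not among those with a low P3: it was at 2.96, 2.30 and 2.99 at P0 and 2.66, 2.48 and 2.57 at P3, where the ranges overlapped, with a difference of -0.27 (SE 0.395, edgeR adjusted p 0.775). In run 1 its T31 animals were at 1.22, 1.04 and 2.6, so that 1 of the 3 was near the level of the F29 animals (2.83, 2.95 and 2.62).

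Counts at T31 were low for part of the genes. The median count of a member in a T31 library of run 3 was 52.5, 16 of the 100 genes had under 10 counts in at least 1 of these libraries (11 of them gradual), and 3 had 0 in at least 1.  Runs also differed. In the 5 animals sequenced in both run 1 and run 3, run 3 minus run 1 had a median of -0.31 over the gradual genes. Between the T31 animals of the 2 runs it was -0.22. Over the bimodal genes the same 2 values were larger and above 0, at 1.498 and 1.26. Over the other genes they were 0.32 and 1.24, and over the 8730 genes -0.14 and -0.26. Levels of the bimodal genes in different runs are thus not directly comparable. The T31, T37 and T42 animals compared above were all in run 3.

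The 12 bimodal genes were of another kind. Their median level was either between 1.37 and 4.20 (25 libraries) or between 8.80 and 10.50 (29 libraries), with no library between. Taken singly, 7 of the 12 genes had a gap of over 3 log2 units between their low and high libraries, and the other 5 did not. With all runs together, every high library was above every low library for 11 of the 12 genes. The remaining gene overlapped and had no separate levels across runs. Where an animal had more than 1 library, the level belonged to the animal and not to the library. Most animals, and all those of T31, had 1 library, so this could not be checked in them. All 6 animals with more than 1 library kept their level in each run, 4 high and 2 low, and in all 23 animals were high and 22 low.

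**Figure D3:**
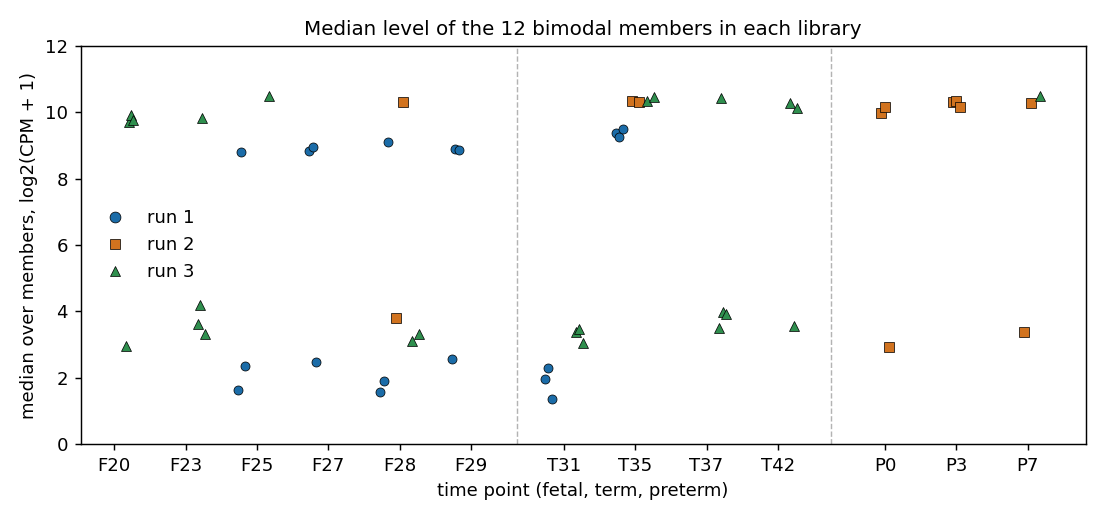
Median level of the 12 bimodal genes (vertical axis, log2(CPM + 1)) in each of the 54 libraries, by time point (horizontal axis), with circles, squares and triangles for runs 1, 2 and 3. Libraries are at 1.37 to 4.20 or at 8.80 to 10.50, and the 6 T31 animals are all low. The T31 animals of run 1 were used to choose the genes by their low values.

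High and low animals occurred at most ages. The number of high animals was 3 of 4 at F20, 1 of 4 at F23, 1 of 3 at F25, 2 of 3 at F27, 1 of 3 at F28, 2 of 3 at F29, 3 of 3 at T35, 1 of 4 at T37, 2 of 3 at T42, 2 of 3 at P0, 3 of 3 at P3 and 2 of 3 at P7. It was 0 of 6 at T31. The 3 T31 animals of run 1 chose the genes by their low values, so only the 3 of run 3, also low, were new. Of the 39 animals of other time points 16 were low, or 41.0%. These include the animals of F28, F29 and T35, whose values were used in the choice as well. A group mean of these genes thus followed how many of its animals were high, and the fitted differences were large with few calls. At T31 against T37 they ran from -8.21 to -0.17 with 0 of 12 called by edgeR and 7 by DESeq2, and at T31 against T35 from -9.70 to -0.79 with 3 of 12 called by edgeR and 7 by DESeq2.

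The bimodal genes had no low P3: all 3 P3 animals were high, and 0 of the 12 genes had a lower mean at P3 than at P0.

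The 12 genes lay within 32 consecutive Ensembl identifiers, of which all 32 are in the table and 14 passed the expression floor. Closeness of identifiers is not a position in the genome, and no coordinates were used. The 12 genes took a large part of the sequencing: between 0.948% and 9.98% of the counts of a library, of which a single gene took 0.895% to 7.82%. The 78 gradual genes together took 0.0724% to 1.41%. Because CPM divides by the library total, the choice was repeated on totals without the 12 genes, and 97 of the 100 genes were kept.

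ENSOCUG00000029108, at rank 7 and chosen after its values were seen, shows the 2 levels. In run 3 it was at 1.54, 0.77 and 0.90 in the T31 animals, at 1.73, 9.54, 2.45 and 1.84 in the T37 animals and at 9.95 and 9.73 in the T35 animals. The T37 animals other than number 27 were near the T31 animals, and both T35 animals were far above them. Its log2 difference between T31 and T35 was -9.65 (SE 3.03, edgeR adjusted p 0.0404), and that between T31 and F28, where both animals of run 3 were low, was -0.93 (SE 3.68, edgeR adjusted p 0.912). P3 animals were at 9.82, 9.82 and 9.73.

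**Figure D4:**
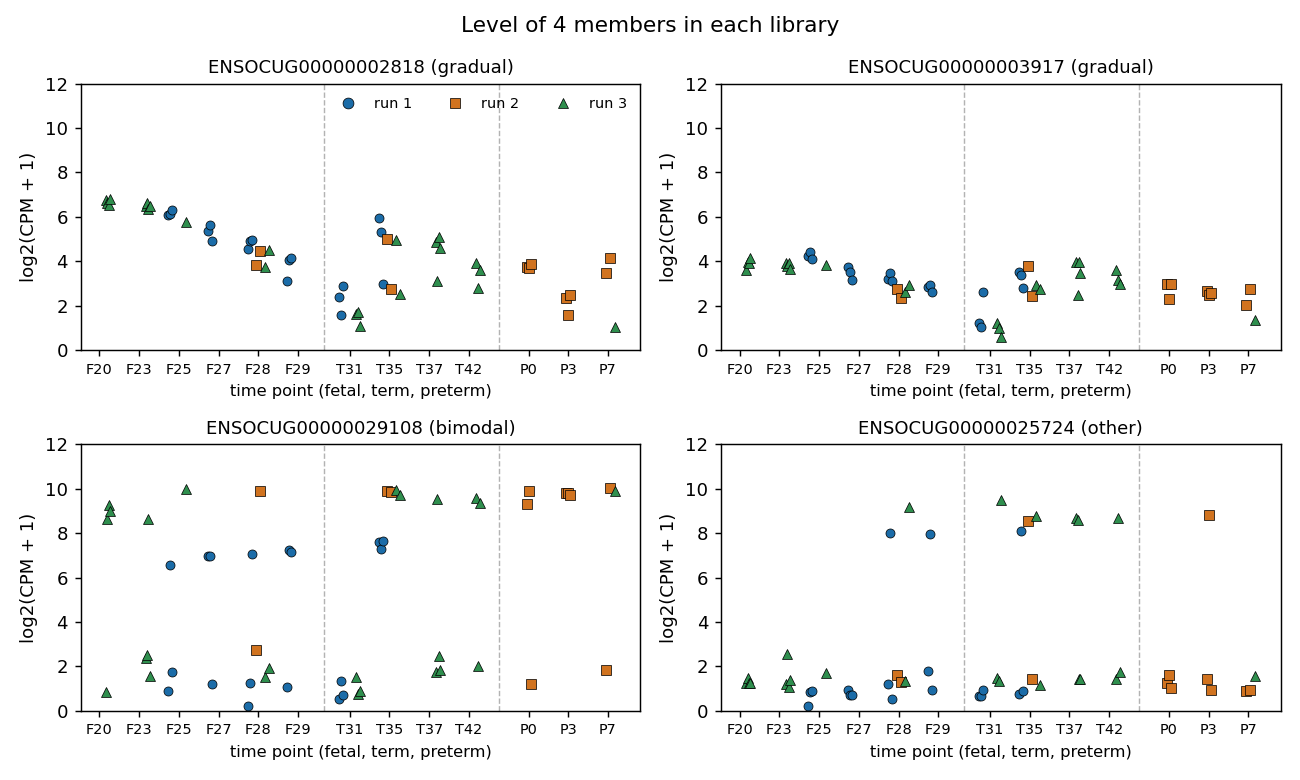
Level (vertical axis, log2(CPM + 1)) of 4 genes in each of the 54 libraries by time point (horizontal axis), with circles, squares and triangles for runs 1, 2 and 3. Within run 1 and within run 3, the upper pair (gradual) is lowest at T31 among the fetal and term time points. Across runs single T31 animals overlap those of other time points. The lower pair (1 bimodal, 1 other) jumps between separate levels, the last being high in 8 of 45 animals.

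The 10 other genes had no shared course. Their median level at T31 was between 2.76 and 3.89 in run 1 and between 3.23 and 4.90 in run 3, where it overlapped the animals of T37 (3.70 to 3.91). At T31 against T37, 0 of the 10 were called and 3 were below 0, with differences between -0.99 and 1.88. Only 1 of the 10 was lower at T31 than at F20 in run 3, where all 78 gradual and all 12 bimodal genes were, against 61.2% of the 8730.

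The gene ranked first, ENSOCUG00000025724, belonged to these 10 and also had 2 levels. It was between 7.96 and 9.50 in 8 animals and at most at 2.58 in the other 37, and every animal with more than 1 library kept its level. The high animals were 1 each at F28, F29, T35, P3, T31 and T42 and 2 at T37, and none was younger than F28. The T31 animals of run 1 were low (0.67, 0.68 and 0.94), but in run 3 they were at 1.47, 1.35 and 9.50, so that T31 number 18 was as high as any animal of the series. The log2 difference between T31 and T37 was 0.47 (SE 1.86, edgeR adjusted p 0.903). The level of this gene and that of the bimodal genes did not go together in each animal: T31 number 18 was low for the bimodal genes, while T37 number 27 was high for both. Beside the bimodal set this was the only member with a gap of over 3 log2 units between 2 groups of at least 2 animals each.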

How the data were processed

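The deposited values are whole-number read counts per Ensembl gene, which the authors made by aligning reads to OryCun2.0 with STAR and counting with HTSeq, and the submitters' processing notes also name FastQC. Versions are not given in the sources used here. The authors also assigned reads in unannotated 3′ UTRs by a script of their own, and it is not stated whether these counts hold such reads, on which the level of a gene with a short annotated end depends. Every column was mapped to its sample by name (0 columns not used), and 6619 of 29587 genes were at 0 in all libraries. Members were found from log2(CPM + 1) with a pseudocount of 1. The members and lists were chosen with earlier results of these data known. The main test was edgeR 4.0.16 (quasi-likelihood, TMM, keeping genes that reached 0.5 CPM in 3 or more of the fitted libraries) in R 4.3.3, fitted per run to all its libraries with the time point as the factor, so no animal entered a fit more than once. DESeq2 1.42.0, limma 3.58.1, other scalings and filters, smaller fits and leaving out each animal were alternatives. Animals were the replicates. Reads carry no molecular identifiers, so depth speaks only of counting error. The rule for genes to be named, the pathway lists and the cell type markers need gene symbols, which the table does not pair with its identifiers, and were not used.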

Additional observations from a re-analysis of the deposited data

Results flagged for a closer look

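Within the groups of 4 animals, single animals lay far from the others in the median level of the bimodal genes, since 1 animal was at the other level. In F20 animal 1 was at 2.97, the other 3 between 9.72 and 9.93. In F23 animal 40 was at 9.82, the other 3 between 3.33 and 4.20. In T37 animal 27 was at 10.42, the other 3 between 3.50 and 3.99. The 3 time points with 4 animals and T31 with 6 were each examined for the 3 sets, 12 times in all. Each of the 3 with 4 animals stood out for the bimodal genes only, and T31 stood out for none of the sets. Chance marks about 1 in 20 groups of values with a single spread, which does not describe genes at 2 levels. Each of these animals had 1 library.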

How the results depend on the processing

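Among alternatives other than those leaving out 1 animal, 69 counts stayed within 1.5 times the reported one and 14 did not. The 69 include counts of 0 that stayed at 0, for P0 against F28, P7 against P3 and F27 against F25, and counts of members kept. Fitting only the groups compared gave 41 in place of 67 genes lower at T31 than T37, 9 in place of 39 for T35, 15 in place of 43 for F28, 22 in place of 37 for T42, and 26 in place of 7 for P3 against P0. Limma-voom gave 11 for T35, 14 for T42 and 1 for P3. DESeq2 gave 17 for P3. Runs 1 and 3 together gave 78 for T35 and 66 for T42, but include the animals that chose the genes. Without the low-count filter 34 genes were lower at P3 than P0, 1 at P0 than F28 and 2 at P7 than P3, and 37 were higher at P7 than P3, in place of 0. Leaving out 1 animal gave 58 to 68 genes for T37, 4 to 48 for T35, 9 to 35 for F28, 12 to 44 for T42, 29 to 64 for F28 against F23, 0 to 2 for P3 against P0, 0 for P0 against F28, P7 against P3 and F27 against F25, and 69 to 85 of the 100 members kept when the ranking left out 1 T31 animal. Members kept numbered 96 with a pseudocount of 0.5, 86 and 89 with a floor of 2 and 3, 88 without F28 and 94 with TMM scaling. The cause of these changes was not tested, beyond fewer samples in the smaller fits. P0 and P3 share replicate numbers 1 and 3, and deviations of same-numbered animals from their group means correlated at 0.10 and 0.02. Differently numbered animals were not set beside them, so whether the numbers carry a pairing was not settled. With the replicate block, 7 genes were lower at P3 than P0 and 0 at P7 than P3, where at an unadjusted p under 0.05 34 were higher and 13 lower at P7.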
